A study of Mus musculus with 30 samples.

Results

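Described here are 10 genes of the Notch pathway in satellite cells of the mouse, which are muscle's stem cells: the receptors Notch1, Notch2 and Notch3, the ligands Dll1, Dll4, Jag1 and Jag2, and the target genes Hes1, Hey1 and Heyl. They were taken by gene symbol from the deposited tables of read counts per gene and are 10 of the 55450 genes in the time course table. Each symbol matched 1 gene in every table, and all 30 libraries gave a count for each. All mice were of the strain C57BL/6. Muscle was injured with barium chloride (BaCl2), and mice were perfused with the fixative PFA before cells were isolated, so that RNA was fixed while the cells were still in the tissue. The time course compared uninjured cells with cells taken 0.5, 1, 2, 4, 8, 16, 32 and 60 h after injury, the regeneration table held cells from 7, 14 and 28 days after injury, and a further table held cells labelled old. The old cells were uninjured and fixed in place (oQSC), freshly isolated (oFISC) or taken 2.5 days after injury (oASC). The labels of oFISC name both a BaCl2 injury and fresh isolation, so the treatment of that group is uncertain. The other groups carry no age label. Each of the 15 groups had 2 libraries, and nothing in the labels says that the 2 came from separate animals, so p-values measure only the spread between these libraries, which may be technical.

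Notch receptors sit in the membrane of one cell and bind ligands of the Delta-like and Jagged families on a neighbouring cell. Binding leads to 2 cuts of the receptor, by an ADAM protease and by gamma-secretase, and the freed intracellular domain joins RBPJ and Mastermind proteins in the nucleus to switch on target genes, above all repressors of the Hes and Hey families. In satellite cells the pathway is known for keeping the cells quiescent, and loss of RBPJ leads them to leave quiescence and differentiate.

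Positions are from GENCODE M21 on GRCm38, the assembly also called mm10. The receptor genes are Notch1 at chr2:26457903-26516663 (minus strand), Notch2 at chr3:98013527-98150361 (plus) and Notch3 at chr17:32120820-32166852 (minus). The ligand genes are Dll1 at chr17:15367354-15376872 (minus), Dll4 at chr2:119325784-119335962 (plus), Jag1 at chr2:137081456-137116644 (minus) and Jag2 at chr12:112907819-112929776 (minus). The target genes are Hes1 at chr16:30064384-30067796 (plus), Hey1 at chr3:8663359-8667256 (minus) and Heyl at chr4:123233556-123249875 (plus). Notch1, Notch2, Notch3, Dll1 and Dll4 share 1389, 541, 488, 867 and 214 exon bases with other gene models, and the other 5 share none.

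The results turn mostly on Notch1 and Notch3, which both fell after injury, so their promoters are shown. Sequences are from RefSeq (build GRCm38.p6), read 5′ to 3′ along the gene, and end at the base before the annotated start, or before the first base of an exon in GENCODE M21. Capitals mark GGGCGG or its reverse complement CCGCCC, the core of the GC box.
Notch1: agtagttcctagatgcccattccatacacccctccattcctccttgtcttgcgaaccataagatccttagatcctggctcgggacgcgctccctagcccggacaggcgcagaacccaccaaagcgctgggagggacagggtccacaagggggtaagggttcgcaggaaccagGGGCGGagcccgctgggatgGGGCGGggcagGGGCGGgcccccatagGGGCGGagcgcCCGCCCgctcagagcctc
Notch3: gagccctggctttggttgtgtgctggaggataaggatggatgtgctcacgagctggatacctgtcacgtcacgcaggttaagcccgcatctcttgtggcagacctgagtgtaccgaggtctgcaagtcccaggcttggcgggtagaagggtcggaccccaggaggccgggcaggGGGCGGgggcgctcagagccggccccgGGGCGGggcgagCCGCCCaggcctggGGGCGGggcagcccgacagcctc
The Notch1 stretch is chr2:26503825-26504072 on the minus strand, lies within the GENCODE span of the gene and overlaps none of its exons. The Notch3 stretch is chr17:32166891-32167140 on the minus strand, just upstream of the gene. The GC box core occurred 5 times in the Notch1 stretch and 4 times in the Notch3 stretch, and 32.7% of the 32851 promoters in the table hold it in the 250 bases before the start, on either strand. It was not particular to these 2 genes: the entries of Notch2 and Jag2 held it 5 times each and that of Dll4 2 times. The entries of Dll1 and Jag1 did not hold it. G and C made up 66.1% and 68.8% of the bases, against a median of 52.4% over all promoters. TGGGAA, the core bound by RBPJ, occurred in neither stretch and in none of the entries of the 7 members that the table lists (21.6% of all promoters hold it). CAGCTG, an E-box bound by MyoD among others, was in neither stretch shown. It was in 1 of the 2 entries of Dll1 and in that of Jag1 (13% of all promoters). A match, or its absence from so short a window, is a description of letters and says nothing of binding.

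Libraries held 9182407 to 57441790 counts. Values are CPM, counts scaled to a common library total after TMM scaling, given for library 1 and library 2 in that order. Values of the time course are scaled within that table, and values set across tables are scaled over all 30 libraries. The defining satellite cell markers Pax7 and Myod1 were detected in every library, but their balance varied. The 4 groups from 0.5 to 4 h each held libraries that differed strongly. Pax7, the transcription factor of satellite cells, was at 756 and 135 CPM at 0.5 h, 554 and 150 at 1 h, 123 and 750 at 2 h and 987 and 69.9 at 4 h. Myod1, the activator of the muscle programme, was at 115 and 1518 CPM at 0.5 h, 159 and 1833 at 1 h, 1976 and 81.8 at 2 h and 87.8 and 2174 at 4 h. In all 4 groups the library with more Pax7 thus had less Myod1. Uninjured cells had 1781 and 1570 CPM of Pax7 and 42.3 and 51.3 of Myod1, and the 8 h libraries 54.6 and 35 of Pax7 and 3315 and 3197 of Myod1. The old uninjured cells had 84.5 and 72.7 CPM of Pax7 and 1070 and 1536 of Myod1 on the scale of all 30 libraries, with less Pax7 and more Myod1 than the uninjured cells of the time course. The share of counts in gene models overlapping ribosomal RNA was 51% and 38.2% for uninjured cells and 28.7% and 31.5% for 60 h, with a range of 4.31% to 11.7% between 0.5 and 32 h and values under 1% in oQSC (0.396% and 0.548%).

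In uninjured cells Notch3 led the 10 genes. Per kilobase of exon, the scale on which genes can be compared, and scaled over all 30 libraries, its level was 201 to 223 CPM, followed by Heyl at 117 to 119. Notch1 (46.3 to 60.5), Notch2 (46.6 to 47.1) and Hes1 (42.2 to 44.7) came next, and Notch1 and Notch2 did not differ beyond their spread. Hey1 was at 18.1 to 23.7, Jag1 at 4.04 to 5.59 and Dll1 at 3.69 to 5.18, the last pair overlapping. Jag2 (0.454 to 0.791) and Dll4 (at most 0.266) were lowest. Receptors and targets were therefore far above all 4 ligands in these cells. The order was not kept: at 8 h Heyl and Hes1 led and Notch3 had dropped to the eighth place with 1.58 to 2.16 CPM per kilobase, at 7 days Notch2 led with 86.2 to 89.9, and in oASC the ligand Dll1 led with 19.8 to 27.

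**Figure D1:**
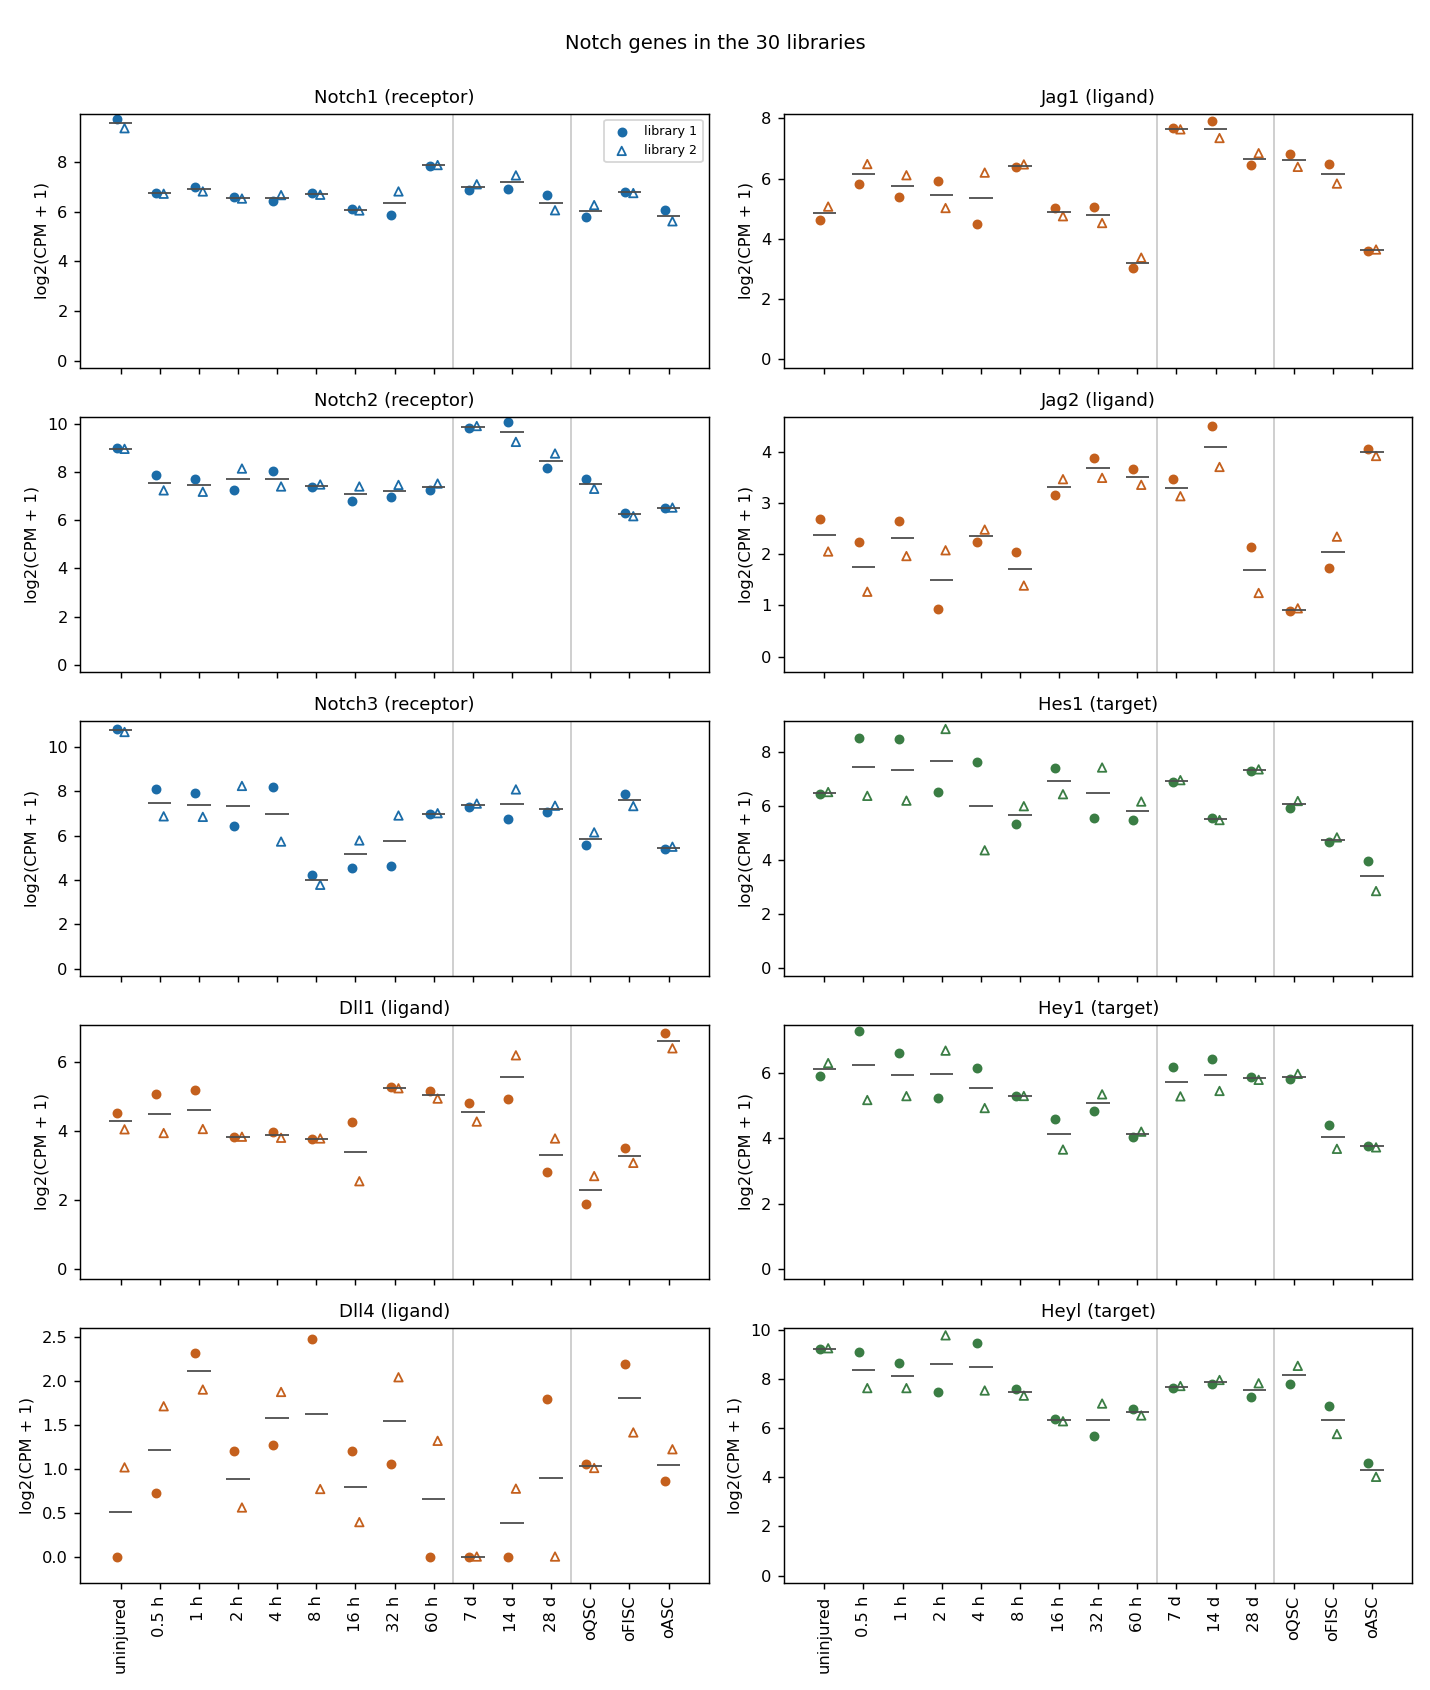
Levels of the 10 genes as log2(CPM + 1), scaled over all 30 libraries, in the 15 groups (circles library 1, triangles library 2, lines the group mean on this scale). Grey lines divide the 3 tables; the uninjured libraries of Notch1 and Notch3 stand above those of every other group, and Dll4 stays at or under 4.55 CPM (vertical scales differ between panels).

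Notch1 was lower than in uninjured cells at every time after injury, and it was the only one of the 10 genes for which this was called at each of the 8 times. The 8 comparisons share the same 2 uninjured libraries and are not independent. Notch1 was at 878 and 665 CPM in uninjured cells, 103 and 106 at 0.5 h, 125 and 114 at 1 h, 102 and 90.6 at 2 h, 83.9 and 102 at 4 h and 106 and 102 at 8 h. It went on to 69.9 and 66.9 CPM at 16 h, 59.8 and 111 at 32 h and 234 and 237 at 60 h. No library after injury reached the uninjured ones, and the early libraries that disagreed on Pax7 were close to each other on Notch1, at most 1.21-fold apart. The log2 fold change was -2.88 ± 0.34 (SE) at 0.5 h (edgeR quasi-likelihood test with Benjamini-Hochberg adjustment, adjusted p = 0.00125), -3.50 ± 0.35 at 16 h (adjusted p = 0.000501) and -1.71 ± 0.32 at 60 h (adjusted p = 0.00256). These 8 calls held without any 1 library of the groups compared and under every other setting run. From 8 to 60 h Notch1 rose by a log2 fold change of 1.19 ± 0.32 (adjusted p = 0.0188), a call lost without any 1 of the 4 libraries (adjusted p = 0.092 to 0.133) and with no filter on low counts (0.103).

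Notch3 had the deepest fall of the 10 genes at 8 h and came partly back. It was at 1837 and 1641 CPM in uninjured cells, 261 and 117 at 0.5 h, 238 and 116 at 1 h, 88.9 and 298 at 2 h and 290 and 52.4 at 4 h. At 8 h it was at 17.3 and 12.7 CPM, at 16 h at 22.7 and 55.3, at 32 h at 24.6 and 118 and at 60 h at 125 and 130. All libraries after injury were below the uninjured ones, and the 8 h pair was below every other library of the time course. The fall at 8 h was 6.85 ± 1.10 on the log2 scale (adjusted p = 0.00278) and held without any 1 library (adjusted p = 0.0139 to 0.0316). At 60 h the log2 fold change against uninjured cells was -3.77 ± 0.95 (adjusted p = 0.0117), and against 8 h it was 3.08 ± 0.93 (adjusted p = 0.0303). The first of these was lost without 60 h library 1 or 2 (adjusted p = 0.0868 and 0.0865) and the second without any 1 of its 4 libraries (0.091 to 0.182). At 16 and 32 h the log2 fold changes were -5.48 ± 1.04 and -4.61 ± 0.99 (adjusted p = 0.00438 and 0.00779), the first lost without 16 h library 1 (0.0552) and the second without 32 h library 1 (0.0673). From 0.5 to 4 h the estimates lay between -3.17 and -3.34. They were called at 0.5, 1 and 4 h and not at 2 h (adjusted p = 0.0506, and 0.00126 to 0.0488 with no filter, RLE size factors, DESeq2 or no ribosomal RNA models), and the calls at 0.5 and 1 h were lost without any 1 library. The call at 4 h was lost without uninjured library 1 or 2 or 4 h library 2 (adjusted p = 0.147, 0.113 and 0.241).

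Notch3 is also made by pericytes and smooth muscle cells. In the uninjured libraries, where Notch3 was highest, the 10 markers of these cells summed to 183 and 117 CPM, on the scale of all 30 libraries, with Rgs5 at 3.22 and 4.7, Myh11 at 2.21 and 1.95 and Cnn1 at 0. At 8 h, where Notch3 was lowest, the sum was 92.2 and 74.1 CPM, with Rgs5 at 34.5 and 16.1 and Myh11 at 4.99 and 3.92. The sum was thus lower where Notch3 was low, while the defining markers Rgs5 and Myh11 were higher. Between the early libraries of a group the sum went with Notch3: 293 against 200 CPM at 0.5 h, 373 against 158 at 1 h, 124 against 247 at 2 h and 347 against 199 at 4 h, and its part in these differences was not tested. Rgs5 alone went against Notch3 in the 2 h pair (10.4 and 8.6 CPM) and the 4 h pair (28.7 and 51.2), and Myh11 in the 2 h pair (2.53 and 1.71).

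Notch2 fell less. It was at 519 and 507 CPM in uninjured cells, between 148 and 280 CPM in the 8 libraries from 0.5 to 4 h, 166 and 179 at 8 h, 114 and 173 at 16 h, 130 and 175 at 32 h and 155 and 186 at 60 h. Every library after injury was below both uninjured ones. The log2 fold change was -1.57 ± 0.39 at 8 h (adjusted p = 0.0129), -1.84 ± 0.40 at 16 h (0.0076), -1.75 ± 0.39 at 32 h (0.0096) and -1.59 ± 0.39 at 60 h (0.0103). Calls were also made at 0.5 and 1 h, whereas the adjusted p was 0.0656 at 2 h and 0.0576 at 4 h (DESeq2 called both, 0.00624 and 0.00541). The calls at 0.5, 1, 8 and 60 h were each lost without any 1 library, that at 16 h without 16 h library 1 (adjusted p = 0.0812), and that at 32 h without uninjured library 1 or 2 or 32 h library 1 (adjusted p = 0.0601, 0.0519 and 0.0885). Its level at 60 h did not differ detectably from that at 8 h (-0.02 ± 0.38).

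Of the ligands, Jag1 was the one with a rise and a fall. It was at 24 and 32.9 CPM in uninjured cells, 53.3 and 89.1 at 0.5 h, 40.4 and 69.9 at 1 h, 61.9 and 31.2 at 2 h and 21.5 and 72.8 at 4 h. It was at 82.1 and 87.8 CPM at 8 h, 32.3 and 26.4 at 16 h, 33.5 and 21.8 at 32 h and 7.29 and 9.45 at 60 h. The 8 h pair stood above both uninjured libraries and the 60 h pair below them. Jag1 is also made by endothelial cells. Their 14 markers summed to 40.5 and 82.7 CPM in uninjured cells, 228 and 152 in the 8 h pair and 19.7 and 21.2 in the 60 h pair, on the scale of all 30 libraries. Of the 14, 7 were higher at 8 h than in uninjured cells (16.1% of all genes were), and 6 were lower at 60 h than at 8 h (11.2%). Their part in the changes of Jag1 was not tested. The rise at 8 h (1.58 ± 0.54, adjusted p = 0.045) and the fall at 60 h (-1.77 ± 0.55, adjusted p = 0.0308) were each lost without any 1 library, and the rise also with RLE size factors (adjusted p = 0.0525). The difference between 60 h and 8 h, -3.34 ± 0.58 (adjusted p = 0.00214), held without any 1 library (0.0117 to 0.0277).

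Jag2 was low, at 5.62 and 3.19 CPM in uninjured cells and 0.952 to 5.23 CPM in the libraries from 0.5 to 8 h. It was at 8.09 and 10.3 CPM at 16 h, 14.2 and 10.2 at 32 h and 11.8 and 9.36 at 60 h, above all earlier libraries. Against uninjured cells edgeR did not call it at any time (at 32 h 1.48 ± 0.63, adjusted p = 0.114), but in the fit without the libraries of 0.5 to 4 h it was called at 32 h (1.41, adjusted p = 0.0318) and 60 h (1.23, 0.046). From 8 to 60 h it rose by 2.17 ± 0.64 on the log2 scale (adjusted p = 0.0285), a call lost without any 1 of the 4 libraries (0.0817 to 0.215).

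Dll1, a ligand made by myogenic cells, was at 22.3 and 15.7 CPM in uninjured cells, 18.5 and 4.95 at 16 h, 39.5 and 36.6 at 32 h and 35.5 and 30.1 at 60 h. It was not called at any time up to 60 h (at 32 h 1.00 ± 0.56, adjusted p = 0.213). Dll1 shares 867 of its 4219 exon bases with A930024N18Rik on the other strand. That gene had 0 to 84 counts in the time course libraries, and without a stated strand setting the reads of the shared stretch cannot be told apart. Dll4, the ligand of endothelial cells, was at 0 to 4.51 CPM in the time course and listed at 0 counts in uninjured library 1 and 60 h library 1. With the filter on low counts edgeR called it in no comparison.

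Among the targets, Heyl was called lower from 16 h on. It was at 609 and 614 CPM in uninjured cells, and from 0.5 to 4 h 1 library of each group was far below that, at 199, 202, 183 and 185, and its partner at 389 to 867. It was at 191 and 159 CPM in the 8 h pair, 84.5 and 78.4 at 16 h, 51.5 and 126 at 32 h and 111 and 91.3 at 60 h. From 16 h on every library was at or below 126 CPM, the lowest of the time course. The log2 fold change was -2.91 ± 0.80 at 16 h (adjusted p = 0.0223), -2.78 ± 0.80 at 32 h (0.0274) and -2.59 ± 0.79 at 60 h (0.0277). In the 8 h libraries it was -1.81 ± 0.77 and not called by edgeR (0.089), but called with no filter on low counts (0.0266), with DESeq2 (0.0314) and without the libraries of 0.5 to 4 h (0.0044). The call was lost without any 1 library at 16 and 60 h (0.0772 to 0.127 and 0.0868 to 0.162), at 32 h without uninjured library 1 or 2 or 32 h library 1 (0.0994, 0.0944 and 0.194). Hey1 was at 60.5 and 78.1 CPM in uninjured cells and 15.5 and 17.5 at 60 h, a fall of 2.07 ± 0.70 on the log2 scale (adjusted p = 0.0439) that was also lost without any 1 library (0.0998 to 0.196). Hey1 had 23.5 and 11.9 CPM in the 16 h pair, not called by edgeR but called with no filter (adjusted p = 0.0137), RLE size factors (0.0457), DESeq2 (0.00879) and without the libraries of 0.5 to 4 h (0.00166). The last fit also called Hey1 lower at 32 h (-1.10, adjusted p = 0.0301). Hes1 was not called at any time under any setting run on these comparisons.

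The early libraries also disagreed on the targets. Hes1, the target most widely used as a readout of the pathway, was at 354 and 83 CPM at 0.5 h, 352 and 74.5 at 1 h, 95.3 and 461 at 2 h and 200 and 19.6 at 4 h, against 87.7 and 91.9 in uninjured cells. In each group the library with more Pax7 had more Hes1, by 4.27, 4.72, 4.84 and 10.2-fold. In these libraries Hes1 was above both uninjured libraries, and in their partners it was at 19.6 to 95.3 CPM. Heyl differed by 2.69, 1.93, 4.73 and 3.79-fold and Hey1 by 4.27, 2.42, 2.6 and 2.36-fold, both with more in the library with more Pax7. Notch2 and Notch3 also lay on the side of Pax7 in 4 of 4 groups, by 1.38 to 1.77-fold and 2.05 to 5.54-fold, and Jag1 on the other side in 4 of 4. Dll1 was on the side of Pax7 in 3 of 4 and Notch1 in 1 of 4, which on the scale of all 30 libraries were 4 and 2. Over all 15 groups Hes1 was on the side of Pax7 in 8, Heyl and Hey1 in 10 each. Libraries that share a number do not lie on the same side: library 1 had more Pax7 at 0.5, 1 and 4 h and library 2 at 2 h. These are values of single libraries, chosen after they were seen, and carry no test. The standard errors of the fitted log2 fold changes of Hes1 against uninjured cells were 1.07 to 1.10.

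**Figure D2:**
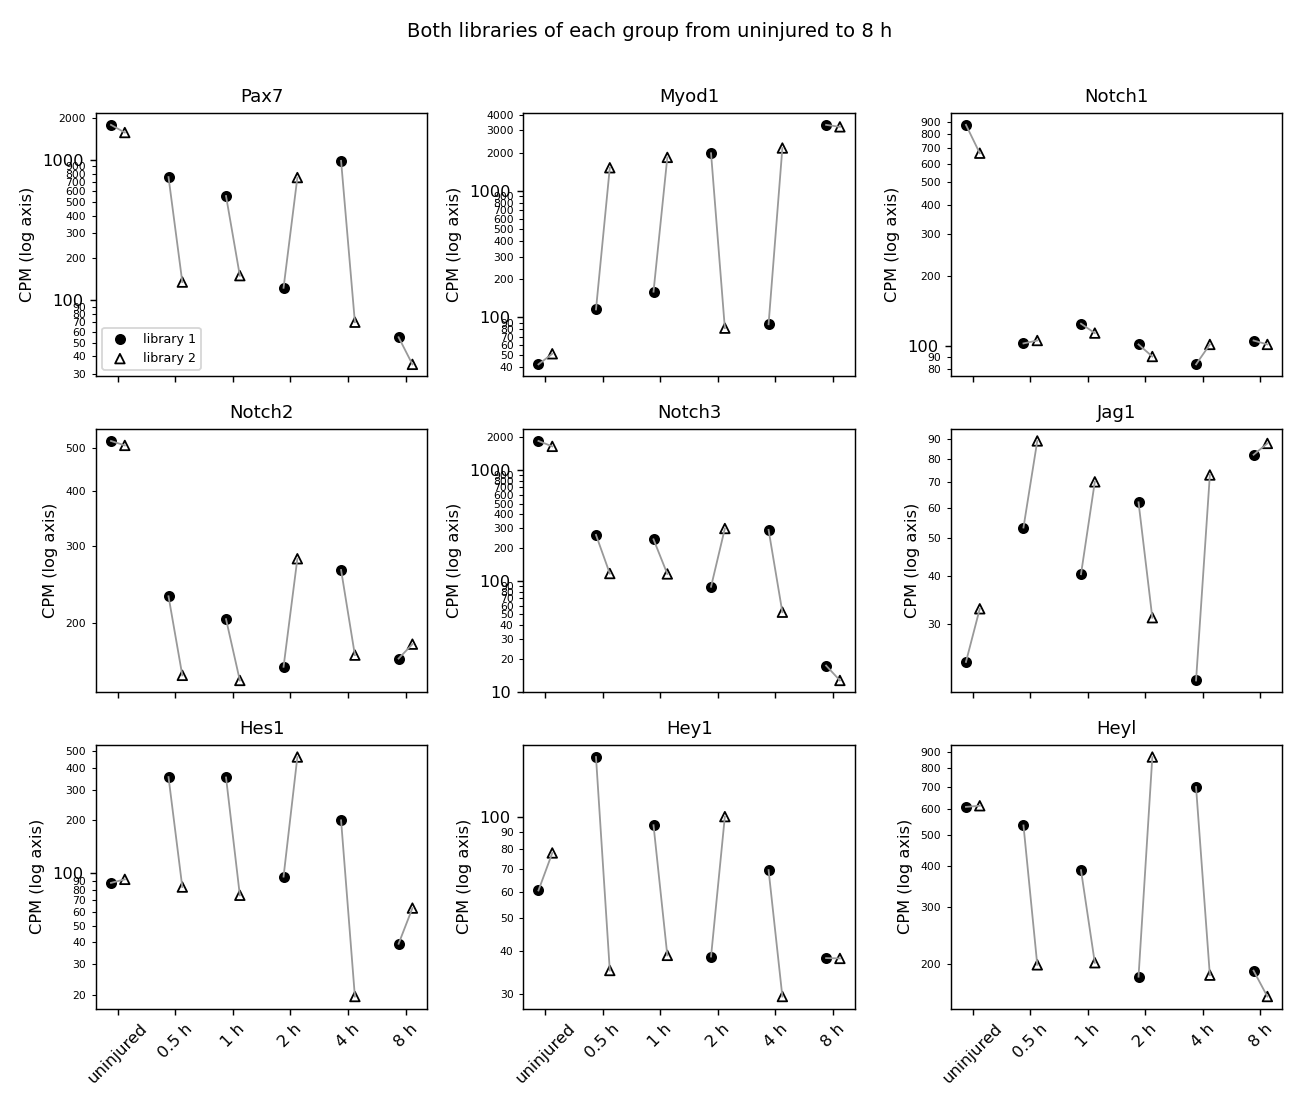
CPM in both libraries of each group from uninjured to 8 h (log axes, circles library 1, triangles library 2, grey lines join a pair). From 0.5 to 4 h the library with more Pax7 has less Myod1 and Jag1 and more Hes1, Hey1, Heyl, Notch2 and Notch3, while Notch1 is near 100 CPM in both.

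Counted over the 10 genes, the calls against uninjured cells were mostly falls of receptors. At 0.5 h 3 were lower and none higher. Of the 22479 genes tested, 10.3% were called at this time, and 3.42% of the 22479 were lower. At 1 h also 3 were lower (3.64% of all genes lower, 10.2% called), at 2 h 1 (2.99%, 9.31% called) and at 4 h 2 (3.8%, 11% called). All of these were receptors. At 8 h the 3 receptors were lower (14% of all genes) and Jag1 was higher (16.1%), 4 calls beside 30.1%. At 16 and 32 h 4 were lower, the receptors and Heyl (8.5% and 6.44% of all genes lower, 22.7% and 20.5% called). At 60 h 6 were lower, with Jag1 and Hey1 added (12.8% lower, 28.3% called). None of the 10 was higher at any time except Jag1 at 8 h, while 15.5% of all genes were higher at 60 h. The median log2 fold change of the 10 was -0.88 at 8 h and -1.65 at 60 h, against 0.00 over all genes at both. In the test for any change up to 60 h 6 were called, Notch1, Notch2, Notch3, Jag1, Jag2 and Heyl (24.7% of all genes). Without uninjured library 1 or 2 or 8 h library 1 or 2 this count was 3, and without 60 h library 1 or 2 it was 2. From 8 to 60 h Notch1, Notch3 and Jag2 were higher (12.5% of all genes) and Jag1 lower (11.2%), 4 of 10 beside 23.8%.

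**Figure D3:**
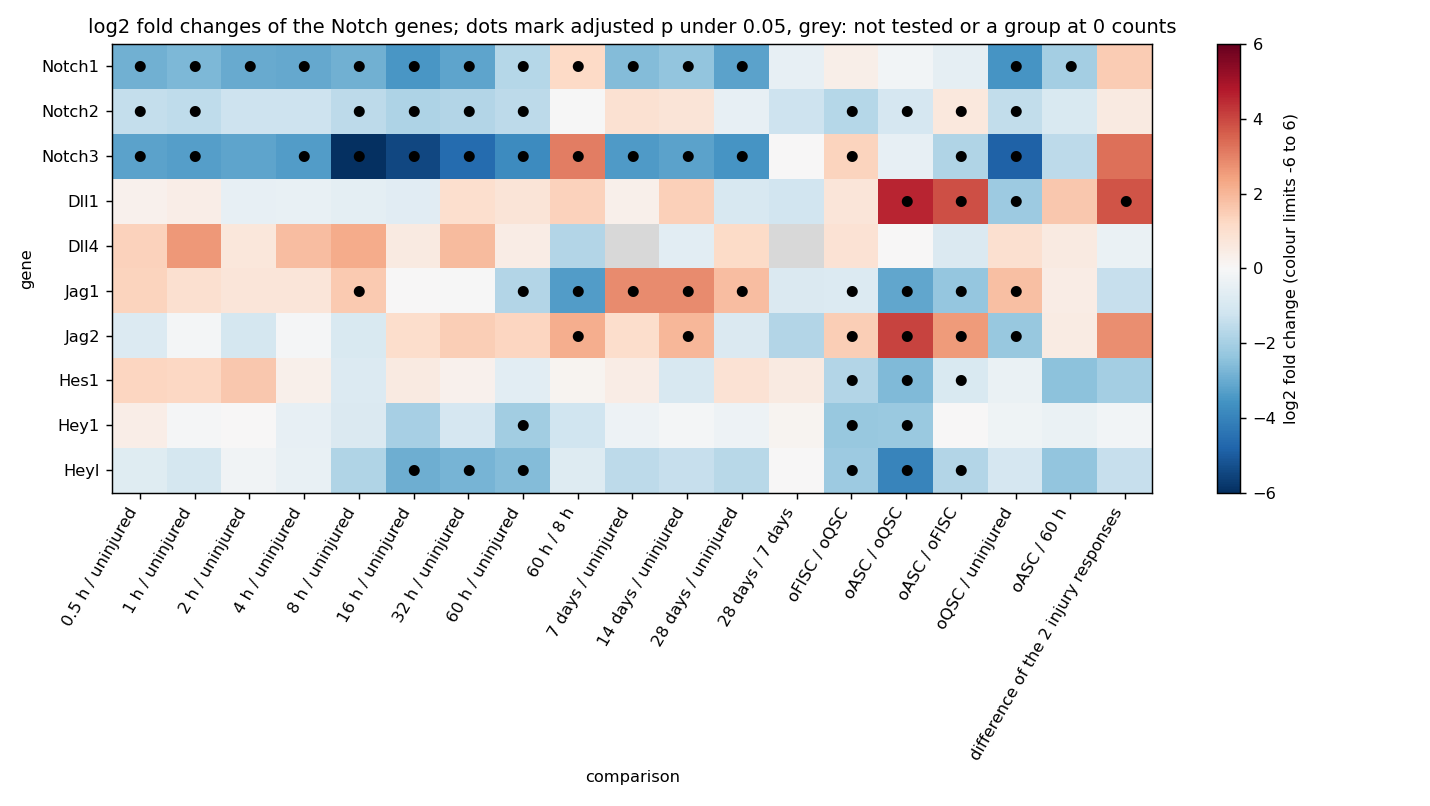
Log2 fold changes of the 10 genes (rows) in 19 comparisons (columns, the first group against the second), red higher and blue lower. Black dots mark an adjusted p under 0.05 over all genes of the fit; grey fields were not tested or had a group at 0 counts. Falls of Notch1, Notch2 and Notch3 fill the first 8 columns.

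The days of regeneration ask whether the genes came back. These values are on the scale of all 30 libraries, and the comparison with uninjured cells also compares 2 tables, so table and time cannot be told apart. Notch1 was still low, at 118 and 137 CPM at 7 days, 119 and 176 at 14 days and 101 and 65.8 at 28 days, against 861 and 659 in uninjured cells. The log2 fold change at 28 days was -3.19 ± 0.36 (adjusted p = 1.70e-05), and the calls at all 3 times held without any 1 library. Notch3 was at 155 and 173 CPM at 7 days, 106 and 270 at 14 days and 135 and 162 at 28 days, against 1801 and 1625. Its log2 fold change was -3.39 ± 0.80, -3.19 ± 0.80 and -3.52 ± 0.81 (adjusted p = 0.00859, 0.0109 and 0.0119). The call at 7 days was lost without 7 day library 1 or 2 (0.0741 and 0.0762), that at 14 days without 14 day library 1 (0.0828), and that at 28 days without 28 day library 1 or 2 (0.125 and 0.0583). So at 28 days neither receptor was at the level of uninjured cells.

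Jag1 went the other way. It was at 203 and 198 CPM at 7 days, 241 and 162 at 14 days and 86.2 and 114 at 28 days, all above the 23.5 and 32.6 CPM of uninjured cells and the 7.23 and 9.37 CPM of 60 h. The log2 fold change was 2.84 ± 0.49 at 7 and at 14 days (adjusted p = 0.000681 and 0.000801), calls that held without any 1 library. At 28 days it was 1.83 ± 0.47 (adjusted p = 0.0224), lost without any 1 library (0.0922 to 0.252). Jag2 at 14 days, with 21.7 and 12.1 CPM, was just called (1.97 ± 0.64, adjusted p = 0.0467), and this was lost without any 1 library and in 5 of 6 other settings. Notch2 was at 929 and 970 CPM at 7 days and 1092 and 614 at 14 days, above the 508 and 502 of uninjured cells, but was not called (0.91 ± 0.38, adjusted p = 0.139 at 7 days). It was at 287 and 439 CPM at 28 days.

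Targets at these days were not called by edgeR against uninjured cells. Heyl was at 197 and 209 CPM at 7 days, 220 and 248 at 14 days and 154 and 226 at 28 days, under the 597 and 608 of uninjured cells without overlap (at 7 days -1.57 ± 0.67, adjusted p = 0.145). With no filter on low counts Heyl was called at all 3 times (adjusted p = 0.00964, 0.0313 and 0.00917), and DESeq2 called it at 7 days (0.045). Hes1 was at 117 and 124 CPM at 7 days, 46.3 and 43.7 at 14 days and 157 and 164 at 28 days, against 86 and 91, so the 14 day pair was below and the 7 and 28 day pairs above. Hey1 overlapped the uninjured libraries at 7 and 14 days and was just under them at 28 days. Dll4 had no count at 7 days, where 3 counts over the group would be 0.112 CPM, and with no filter on low counts it was called lower there (adjusted p = 0.0376). At 7 days 1 of the 10 was higher and 2 were lower, beside 5.84% and 5.35% of the 28823 genes tested (11.2% called). At 14 days 2 were higher and 2 lower, beside 6.51% and 6.33% (12.8% called), and at 28 days 1 and 2, beside 2.29% and 4.2% (6.49% called). Between 28 and 7 days, within the regeneration table, none of the 9 genes tested was called by edgeR (0.295% of 16954 genes). Of the 9, 3 had an unadjusted p under 0.05, and DESeq2 called 1, Notch2 (adjusted p = 0.0089). Markers of other cells differed between these libraries: markers of pericytes and smooth muscle summed to 294 and 403 CPM at 7 days and 477 and 862 at 14 days, against 183 and 117 in uninjured cells. Fibroblast markers summed to 1476 and 1287 CPM and to 1647 and 1137, against 811 and 596. At 7 days 0 of 10 pericyte and smooth muscle markers and 1 of 9 fibroblast markers were called higher. At 14 days these counts were 2 and 3, and at 28 days 1 and 1. The sums at 28 days were 174 and 137 CPM for pericytes and smooth muscle and 596 and 599 for fibroblasts. Endothelial markers summed to 21.7 and 24.4 CPM at 7 days, 39.6 and 27.9 at 14 days and 145 and 64 at 28 days, against 40.5 and 82.7. Of these 14 markers, 1 was higher and 2 lower at 7 days, 2 lower at 14 days and 1 higher at 28 days. Of 10 muscle fibre markers, 0 were called at 7 days, 6 were higher at 14 days and 5 at 28 days. Pdgfra was at 0 at 7 and 14 days and in uninjured cells. Their part in the levels of Jag1 and Notch2 was not tested, and in bulk libraries fewer cells of a type and less RNA per cell cannot be told apart.

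The old cells were compared within their own table and scale. Of their 4 ligands, 3 were called between oASC and oQSC. Dll1 was at 2.35 and 4.65 CPM in oQSC, 6.6 and 5.01 in oFISC and 97.6 and 71.2 in oASC. The oASC pair stood above every other library of that table, and the log2 fold change against oQSC was 4.59 ± 0.37 (adjusted p = 4.15e-05). Jag2 was at 0.744 and 0.783 CPM in oQSC, 1.48 and 2.75 in oFISC and 13.5 and 12.1 in oASC (4.06 ± 0.38 for oASC against oQSC, adjusted p = 8.16e-05). Jag1 was at 97.7 and 70.2 CPM in oQSC, 56.9 and 37.8 in oFISC and 9.45 and 9.79 in oASC, a fall of 3.12 ± 0.28 on the log2 scale (adjusted p = 6.28e-05). Dll4 was not called (0.02 ± 0.52). So Dll1 and Jag2 were higher and Jag1 lower in the injured old cells.

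All 3 targets fell. Heyl was at 191 and 313 CPM in oQSC, 74.7 and 35.8 in oFISC and 19.9 and 12.9 in oASC, without overlap between groups. Its log2 fold change in oASC was -3.94 ± 0.43 (adjusted p = 0.000184). Hes1 was at 52.5 and 60.9 CPM in oQSC, 15.5 and 18.5 in oFISC and 12.6 and 5.25 in oASC (-2.67 ± 0.38, adjusted p = 0.000747). Hey1 was at 47.6 and 52 CPM in oQSC, 12.9 and 7.94 in oFISC and 10.9 and 10.4 in oASC (-2.23 ± 0.26, adjusted p = 0.000254). In oFISC the targets were also under oQSC: Hey1 by 2.27 ± 0.26, Heyl by 2.19 ± 0.40 and Hes1 by 1.74 ± 0.37 (adjusted p = 0.000342, 0.00353 and 0.00736). Fixing in place, fresh isolation and the uncertain treatment of oFISC cannot be told apart in this comparison. The fall of Hes1 in oFISC was lost without oFISC library 1 or 2 (0.0601 and 0.0529). Markers of other cells also fell from oQSC to oASC: 9 of 14 endothelial, 8 of 10 pericyte and smooth muscle, 5 of 9 fibroblast and 3 of 5 Schwann cell markers were lower, and 1 fibroblast marker was higher. Of all genes 21.3% were lower and 19% higher there. The fall was not limited to other cells, since 4 of 8 satellite and myogenic markers were lower and 3 higher. The endothelial sum was 139 and 175 CPM in oQSC and 32.2 and 24.2 in oASC, and the Schwann cell sum 573 and 564 and 85.8 and 66, with 121 and 71 in oFISC, on the scale of all 30 libraries. The pericyte and smooth muscle sum moved little, at 282 and 297 CPM in oQSC and 270 and 257 in oASC. Of 10 leukocyte markers 3 were lower and 2 higher, and of 10 muscle fibre markers 1 was lower and 1 higher. Their part in the falls of the targets and of Jag1 was not tested.

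Receptors moved less in the old cells. Notch1 was at 46.8 and 64.5 CPM in oQSC, 71.2 and 72 in oFISC and 57.3 and 40.9 in oASC, and was not called between any of them (adjusted p = 0.239, 0.579 and 0.0723). RLE size factors and DESeq2 called it between oFISC and both other groups. Notch2 was at 183 and 133 CPM in oQSC, 50.5 and 47.9 in oFISC and 76.7 and 77.9 in oASC. It was lower in oFISC (-1.69 ± 0.22, adjusted p = 0.000537) and in oASC (-1.03 ± 0.21, adjusted p = 0.00494), the second lost without oASC library 1 or 2 (0.0616 and 0.0543). Notch3 was at 41.2 and 59.2 CPM in oQSC, 148 and 107 in oFISC and 35 and 37.7 in oASC. It was higher in oFISC than in oQSC (1.35 ± 0.25, adjusted p = 0.00367) and lower in oASC than in oFISC (-1.81 ± 0.25, adjusted p = 0.000501), both without exception among the left-out libraries.

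Over the 10 genes, 7 were called between oFISC and oQSC, 2 higher and 5 lower. Of all 30099 genes 41.9% were called there, 19.3% higher and 22.6% lower. Between oASC and oQSC 7 were called, 2 higher and 5 lower (40.3%, 19% higher and 21.3% lower), and between oASC and oFISC 7, 3 higher and 4 lower (67%, 27.3% higher and 39.7% lower). The oASC and oFISC comparisons share the oQSC libraries. The last share is near that of all genes. The dispersion common to all genes was 0.0878 in this table and 0.316 in the time course. The median log2 fold change over all genes was 0.52 for oFISC against oQSC, -0.33 for oASC against oQSC and -1.05 for oASC against oFISC (0.81, -0.29 and -1.31 with RLE size factors). Relative to the first of these, Notch3 in oFISC stands less high and the targets stand lower. The weakest calls depend on this: Jag1 between oFISC and oQSC (-0.83 ± 0.26, adjusted p = 0.0319) and Notch2 between oASC and oFISC (0.65 ± 0.21, adjusted p = 0.0244) were lost with RLE size factors and with DESeq2. Jag1 was also lost without oQSC library 1 or oFISC library 2 (0.147 and 0.203), and Notch2 without oFISC library 2 or oASC library 1 or 2 (0.0524, 0.0814 and 0.0975). Jag2 between oFISC and oQSC (1.49 ± 0.37, adjusted p = 0.0148) was lost without oQSC library 1 or 2 or oFISC library 2 (0.0685, 0.0567 and 0.051). Of the targets between oASC and oFISC, Heyl (-1.75 ± 0.40, adjusted p = 0.00593) was lost without oFISC library 1 (0.0504), and Hes1 (-0.93 ± 0.37, adjusted p = 0.0499) without oFISC library 1 or 2 or oASC library 2 (0.115, 0.203 and 0.335). Without oFISC library 2 the count between oFISC and oQSC was 4.

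Set against the uninjured cells of the time course, on the scale of all 30 libraries, oQSC had less of all 3 receptors. Age label and table cannot be told apart here, and oQSC also differed in Pax7, Myod1 and ribosomal RNA share as given above. Of 66 markers, 23 were higher in oQSC and 4 lower, among them 5 of 9 fibroblast, 6 of 10 muscle fibre and 4 of 14 endothelial markers higher. The Schwann cell sum was 573 and 564 CPM against 105 and 127, and the part of these cells in the differences was not tested. Notch1 was at 53.8 and 76.2 CPM against 861 and 659 (-3.55 ± 0.36, adjusted p = 1.58e-06), and Notch3 at 47.3 and 69.9 against 1801 and 1625 (-4.87 ± 0.86, adjusted p = 0.000341). Both held without any 1 library. Notch2 was at 210 and 158 CPM against 508 and 502 (-1.46 ± 0.39, adjusted p = 0.00961). Dll1 (-2.19 ± 0.60) and Jag2 (-2.27 ± 0.66) were lower and Jag1 was higher (1.80 ± 0.47), with adjusted p = 0.0109, 0.0167 and 0.00839. The targets were not called. In all 6 of 10 genes were called, 1 higher and 5 lower, beside 12.3% higher and 9.31% lower among all genes (21.6% called) and a median log2 fold change of 0.49 over all genes (0.36 with RLE size factors). Without uninjured library 1 the count was 2 and without oQSC library 1 it was 3: Dll1 and Jag1 were lost without either, Jag2 without either or without oQSC library 2, and Notch2 without uninjured library 1 or oQSC library 2 (adjusted p = 0.057 to 0.159 over these fits).

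Fewer of the 10 were called between the injured groups. Between oASC and 60 h, taken at 2.5 days and 60 h after injury, 1 of 10 genes was called, Notch1 at 66.8 and 48.1 CPM against 232 and 235 (-2.02 ± 0.34, adjusted p = 0.00313, against 1.03% of all genes lower and 2.2% called). The call was lost without oASC library 1 or 2 (0.052 and 0.13). Heyl was at 23.2 and 15.2 CPM against 110 and 90.5 (-2.39 ± 0.69, adjusted p = 0.0767), and Hes1 at 14.7 and 6.17 against 44.2 and 71 (-2.46 ± 0.93, adjusted p = 0.199), both without overlap. Notch3 was at 40.8 and 44.3 CPM against 124 and 128 and Dll1 at 114 and 83.7 against 35.2 and 29.8, not called. DESeq2 called 4 of the 10 here, as did edgeR without a filter on low counts, and both called Heyl and Hes1 among them. In this comparison 6 of the 10 had an unadjusted p under 0.05, as many as between oQSC and uninjured cells. For Heyl and Hes1 the estimates there were -1.03 and -0.42.

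The difference between the 2 injury responses, oASC against oQSC minus 60 h against uninjured, was tested in the fit over all 30 libraries. Dll1 was the 1 gene of 10 that edgeR called in this fit, as higher (3.29% of all genes, 7.28% in either direction). It rose by 4.59 ± 0.66 on the log2 scale in the old cells and changed by 0.80 ± 0.57 (adjusted p = 0.353) in the cells with no age label, a difference of 3.79 ± 0.83 (adjusted p = 0.00746). The difference was lost without 60 h library 2 or oQSC library 1 (0.051 and 0.0688). For Jag2 the responses were 4.07 ± 0.70 and 1.28 ± 0.63 (difference 2.78 ± 0.90, adjusted p = 0.0627), for Notch3 -0.46 ± 0.73 and -3.76 ± 0.82 (3.30 ± 1.06, adjusted p = 0.0628) and for Notch1 -0.18 ± 0.33 and -1.70 ± 0.34 (1.52 ± 0.47, adjusted p = 0.0514). DESeq2 called these 3 differences (adjusted p = 0.00986, 0.0141 and 0.00652). With no filter on low counts edgeR called Notch3 (adjusted p = 2.16e-05). It called Notch1 without ribosomal RNA models (0.0494), and Notch1 and Jag2 in the fit on the 2 tables compared (0.0392 and 0.0366). Dll1, Jag2, Notch3 and Notch1 all had lower levels in oQSC than in uninjured cells, as given above. For Dll1 that difference was -2.19 ± 0.60 (adjusted p = 0.0109). Between oASC and 60 h Dll1 was not called (1.60 ± 0.58, adjusted p = 0.174). For Jag1 the difference was -1.36 ± 0.65 (adjusted p = 0.233), for Hes1 -2.04 ± 1.26 (0.378) and for Heyl -1.36 ± 0.93 (0.451). Hes1 was called by edgeR with no filter on low counts (adjusted p = 0.0422).

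**Figure D4:**
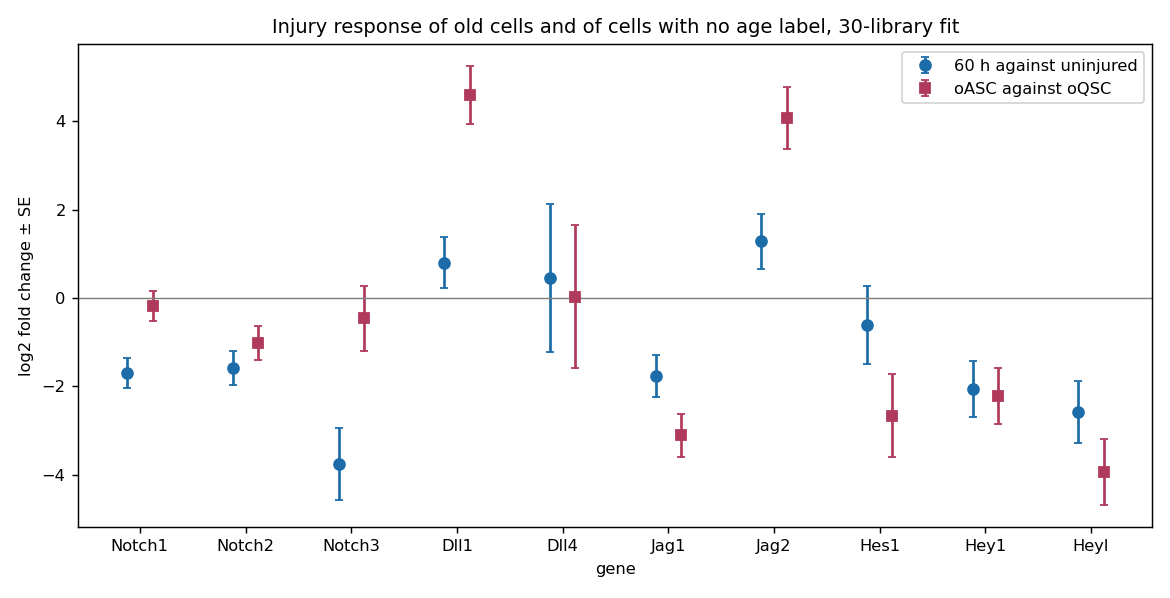
Log2 fold changes ± SE of the 10 genes after injury in cells with no age label (circles, 60 h against uninjured) and in old cells (squares, oASC against oQSC), from the fit over all 30 libraries. Dll1 lies at 0.80 in the first and 4.59 in the second.

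The machinery around the 10 genes was read from a list of 73 further genes of the pathway. Levels given for these genes, here and below, are on the scale of all 30 libraries, also where the fold change is from a fit within 1 table. Of the 73 genes, 68 could be tested in the time course and 30 were called for any change (24.7% of all genes were). Their calls went in both directions: 7 of 68 higher and 7 lower at 0.5 h (6.88% and 3.42% of all genes), 10 and 18 at 8 h (16.1% and 14%) and 8 and 22 at 60 h (15.5% and 12.8%), with median log2 fold changes of 0.00, -0.50 and -1.0 (over all genes 0.24, 0.00 and 0.00). Ep300, a histone acetyltransferase of the activating nuclear complex, was at 214 and 221 CPM in uninjured cells on the scale of all 30 libraries, 42.1 to 66 CPM in the libraries from 0.5 to 8 h and 115 and 101 at 60 h. Its log2 fold change at 0.5 h was -2.32 ± 0.26 (adjusted p = 0.00125). Hdac1, a histone deacetylase of corepressor complexes, rose from 12.8 and 14.5 to 62.6 and 77.8 CPM at 0.5 h (2.33 ± 0.37, adjusted p = 0.00417).

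The 5 genes reported as Notch targets in satellite cells, Calcr and collagen genes, had no call at 0.5, 2 and 4 h. Of the 5, 1 was lower at 1 h (3.64% of all genes were), then 3 (8 h, 14%), 4 (16 h, 8.5%), 2 (32 h, 6.44%) and all 5 (60 h, 12.8%). At 60 h their median log2 fold change was -2.45, against 0.00 over all genes. Calcr, the calcitonin receptor of quiescent satellite cells, was at 147 and 180 CPM in uninjured cells, 110 and 118 at 8 h, 29.5 and 14.9 at 16 h and 13.8 and 16.4 at 60 h (-3.44 ± 0.44 at 60 h, adjusted p = 0.000323). Col5a1, a collagen V chain, went from 218 and 149 CPM to 24.6 and 31.4 at 60 h (-2.72 ± 0.36, adjusted p = 0.000355). Like Heyl, both were lowest from 16 h on, whereas Notch1 was low from 0.5 h on. In the old cells Calcr was at 311 and 317 CPM in oQSC, 91 and 53.5 in oFISC and 5.79 and 4.78 in oASC (-5.90 ± 0.31 for oASC against oQSC, adjusted p = 7.42e-06), while 2 of the other 4 rose. Col5a3, another collagen V chain, was at 11.1 and 17.5 CPM in oQSC and 67.2 and 90.5 in oASC (2.46 ± 0.27, adjusted p = 0.000172), and Col5a1 at 9.73 and 15.4 and at 28.2 and 19.4 (0.92 ± 0.29, adjusted p = 0.0348). In oFISC also 2 of the 5 were higher and 1 lower than in oQSC, and the median log2 fold change of the 5 in oASC was 0.37.

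Of the 10 genes that cut the receptor, Aph1a, a subunit of gamma-secretase, was at 61.6 and 45.2 CPM in uninjured cells, 10.1 and 11.5 at 8 h and 93.3 and 92.8 at 60 h (60 h against 8 h 3.13 ± 0.44, adjusted p = 0.000672). In old cells it was at 2.4 and 3.19 CPM in oQSC and 44.3 and 57.5 in oASC (4.18 ± 0.31, adjusted p = 2.52e-05). Hes6, a relative of Hes1 that counters it and is tied to differentiation, was at 28.9 and 26.3 CPM in oQSC, 5.32 and 5.44 in oFISC and 86 and 74.6 in oASC. It rose from oFISC to oASC by 4.28 ± 0.23 on the log2 scale (adjusted p = 9.87e-06), the opposite direction to Heyl and Hes1. The median over all genes was -1.05 there, beside -1.75 ± 0.40 for Heyl and -0.93 ± 0.37 for Hes1, so Hes1 fell no more than the median gene. Numbl, a relative of the Notch inhibitor Numb, was at 37.5 and 37.5 CPM in uninjured cells and 6.37 and 6.05 at 7 days (-2.59 ± 0.41, adjusted p = 0.000376).

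Across the 18 time course libraries, the genes whose log2 CPM followed each of the 10 most closely among 6332 compared were named as a description, with no test, since the libraries share treatment groups and depth. Notch1 was most like Prrc2b (r = 0.96) and Usf3 (0.948), Notch2 like Pld1 (0.968) and Tns2 (0.967), and Notch3 like Clip3 (0.973) and Dock6 (0.968). Jag1 was most like Ntf3 (0.958) and Plcd1 (0.943). Heyl was most like Gprasp1 (0.93) and Pde3a (0.928), Hes1 like Mccc1 (0.917) and Loxl1 (0.884), and Hey1 like Golim4 (0.921). Dll1 and Jag2 had looser partners, Cdk2 (0.83) and Adam15 (0.79) for Dll1 and Arl6ip4 (0.877) and Ndufa8 (0.873) for Jag2. Dll4 was too low for this. None of the other members had another of the 10 among its closest 2. Jag2 and Dll4 could not appear there, since partners needed a mean of at least 20 CPM.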

How the data were processed

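The authors deposited 3 tables of read counts per gene, one each for the time course, the regeneration days and the old cells. Per the submitters' processing notes, Trimmomatic 0.36, HISAT2 2.1.0, SAMtools 1.3 and StringTie 1.3.3 were used with mm10. Not given in the sources used here are the counting program, its strand setting and the annotation. Per the labels' protocols, cDNA was made with a SMART-Seq kit for low input and libraries by Tn5.

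Counts were tested with edgeR 4.0.16 (R 4.3.3): TMM scaling, filterByExpr (minimum count 10, minimum total count 15), the quasi-likelihood F test and Benjamini-Hochberg adjustment over all genes of the fit, called at an adjusted p under 0.05. SE is the log2 fold change divided by the square root of F. The time course was fitted on 18 libraries, 28 against 7 days and the old cells on 6 each within their table, and comparisons across tables on all 30 libraries and the 55154 gene identifiers found in every table. With 2 libraries a group, an exact permutation test of single genes could not pass 0.05 and was not used. CPM per kilobase divides by the exon length in GENCODE M21. The script was tested on simulated counts. Libraries of a group differed by more than counting noise in every group, which does not tell separate animals from separate preparations of 1 sample, and each was counted as 1 replicate.

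The 10 genes and the lists of pathway and marker genes were chosen with earlier results of these data known. Named from the pathway list were the 12 smallest adjusted p for any change to 60 h and up to 3 per other comparison, of which the text uses some; all members are named. Values of 2 genes these rules name are not reported here. The genes most like a member are the 2 with the highest Pearson r of log2 CPM over 18 libraries, for members with a mean of at least 5 CPM among genes with at least 20 CPM. Alternatives were RLE size factors, no filter, a replicate block, leaving out ribosomal RNA models, DESeq2 1.42.0, leaving out each library, leaving out the libraries of 0.5 to 4 h and fits on the 2 tables compared.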

Additional observations from a re-analysis of the deposited data

Results flagged for a closer look

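The response of Dll1 to injury differed between old cells and cells with no age label, in a test of the difference itself over all 30 libraries. On the log2 scale the difference was 3.79 ± 0.83 (SE, edgeR quasi-likelihood test, adjusted p = 0.00746). Dll1 was at 2.7 and 5.48 CPM in oQSC and 114 and 83.7 in oASC, and at 21.9 and 15.6 CPM in uninjured cells and 35.2 and 29.8 at 60 h, on the scale of all libraries. Without 60 h library 2 or oQSC library 1 the adjusted p was 0.051 and 0.0688. The other settings run gave an adjusted p of 0.000142 to 0.00851. Age label, table and the Pax7 and Myod1 levels of oQSC cannot be told apart in this comparison. In the same fit Dll1 was lower in oQSC than in uninjured cells (-2.19 ± 0.60, adjusted p = 0.0109). Between oASC and 60 h it was not called (1.60 ± 0.58, adjusted p = 0.174). Counts of the antisense gene A930024N18Rik in the old cells were not used here.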

How the results depend on the processing

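No result reversed under any alternative. Over the values of single genes, RLE size factors left 189 of 199 values on their side of the threshold, no filter on low counts 184, the replicate block 191, leaving out ribosomal RNA models 195 and DESeq2 179; leaving out the libraries of 0.5 to 4 h left 52 of 60 and a fit on the 2 tables compared 57 of 60. Of 976 values without 1 library, 140 lost their call and 3 gained one. Only a value called with all libraries could lose its call, and the 976 also hold values that were not called, so 140 is not a share of 976. Of 1221 values that were not called, 65 had the other sign. The number of genes called of 10 changed by more than 1.5 times as follows. At 0.5 h and at 4 h it was 1 with the replicate block, and at 2 h it was 2 with RLE size factors, 2 with no filter, 2 without ribosomal RNA models and 3 with DESeq2. At 7 days it was 5 with no filter, and between 28 and 7 days 1 with DESeq2. Between oASC and 60 h it was 4 with no filter and 4 with DESeq2. For the difference of the injury responses it was 3 with no filter, 2 without ribosomal RNA models, 4 with DESeq2 and 3 in the fit on the 2 tables compared. The cause was not tested. Without the libraries of 0.5 to 4 h, an alternative for any change to 60 h that was chosen after seeing the data, 8 of 10 were called, the 6 given above with Dll1 and Hey1.

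Without 1 library the number called ran from 1 to 1 at 0.5, 1 and 2 h, 1 to 2 at 4 h, 2 to 2 at 8 h, 1 to 3 at 16 h, 1 to 4 at 32 h and 1 to 2 at 60 h. It ran from 2 to 7 for any change, 1 to 1 for 60 h against 8 h, 2 to 3 at 7 and 14 days, 1 to 2 at 28 days and 0 to 0 for 28 against 7 days. It ran from 4 to 7 for oFISC and 6 to 7 for oASC against oQSC, 5 to 6 for oASC against oFISC, 2 to 6 for oQSC against uninjured, 0 to 1 for oASC against 60 h and 0 to 1 for the difference of the injury responses. These fits leave a group with 1 library, which is assumed to vary like the other groups.

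Replicate numbers are shared by all groups but do not pair the samples: deviations from the group means correlated at -0.671 to 0.614 over 36 pairs of groups in the time course, 6 of them over 0.1, at -0.0025 to 0.0402 in the regeneration table and at -0.00704 to 0.0194 in the old cells. With a replicate block 8 values lost their call and none gained one.

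Dll4 had at most 4.55 CPM in any library on the scale of all 30, so small changes in it were not detectable at this depth.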
